A study of Homo sapiens with 12 samples.

Results

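OVCAR-3 cells transfected with control siRNA, a small interfering RNA that serves as the transfection control, gave the resting transcriptome described here. OVCAR-3 is an established human line of high-grade serous ovarian carcinoma. The 3 arrays labelled as control replicates 1, 2 and 3 were taken by their label from a series of 12 arrays. The other 9 arrays, which received siRNAs against Oct4, Rb1 or Ccnf with Nipp1, were not used. The control cells were grown in RPMI-1640 with 20% fetal bovine serum and insulin at 10 μg/ml. They received their siRNA in Lipofectamine RNAiMAX, and total RNA was taken 72 hours later. Every array of the series carries that culture and transfection, so a value here is that of transfected and not of untouched cells. No source used here gives the sequence of the control siRNA. The labels call the arrays biological replicates without naming separate cultures, so the spread between them may be technical. All of them come from a single line, which limits them as a model of the tumour.

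High-grade serous carcinoma is an epithelial tumour that is widely held to arise from secretory cells of the fallopian tube, a derivative of the embryonic Müllerian duct. Its diagnosis leans on transcription factors of that lineage, PAX8 and WT1, and on the surface mucin MUC16, the source of the serum marker CA125. Such tumours keep simple keratins and E-cadherin and often lose control of the RB pathway, which holds E2F transcription factors in check before S phase. POU5F1, the gene of OCT4, is a pluripotency factor of embryonic stem cells.

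The RNA was labelled with biotin and read on Illumina HT-12 arrays of 47322 probes. The median signal was 212 intensity units on replicate 1, 201.2 on replicate 2 and 201.8 on replicate 3. A probe counted as detected on an array where its deposited detection p-value, which sets its signal against the array's negative control beads, was under 0.01. By that measure 17068, 17316 and 17164 probes were detected on replicates 1, 2 and 3, or 36.1 to 36.6% of each array. The lowest signal that counted as detected was 263.2 on replicate 1, 245.6 on replicate 2 and 246.6 on replicate 3. The number of arrays limits the precision, and with 1 group of 3 arrays no test between groups exists.

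Of the 20039 genes with a named probe, 9674 (48.3%) were detected on all 3 arrays. On the other side, 9138 genes (45.6%) had no probe above background on any of them. The remaining 1227 genes lay in between: 505 were detected on 2 arrays, 715 on 1, and 7 only through a probe other than the brightest, on part of the arrays. Each gene was read by its brightest probe. Brightness depends on the probe as well as on the transcript, so the order of genes by brightness is not their order of abundance. Next to the threshold, 337 detected genes had a highest detection p-value from 0.005 to 0.01, and 270 genes had one from 0.01 to 0.02. The middle detected gene had a mean signal of 1097, and the quartiles were 501.7 and 2760. The mean lowest detected signal was 251.8, and 2428 detected genes (25.1%) stayed under 2 times that limit, 2612 (27.0%) exceeded 10 times it and 176 (1.82%) exceeded 100 times it. Protein-coding genes were detected in 9271 of 17772 cases (52.2%), transcribed pseudogenes in 138 of 528 (26.1%), long non-coding RNAs in 103 of 796 (12.9%) and microRNA genes in 22 of 560 (3.93%).

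**Figure D1:**
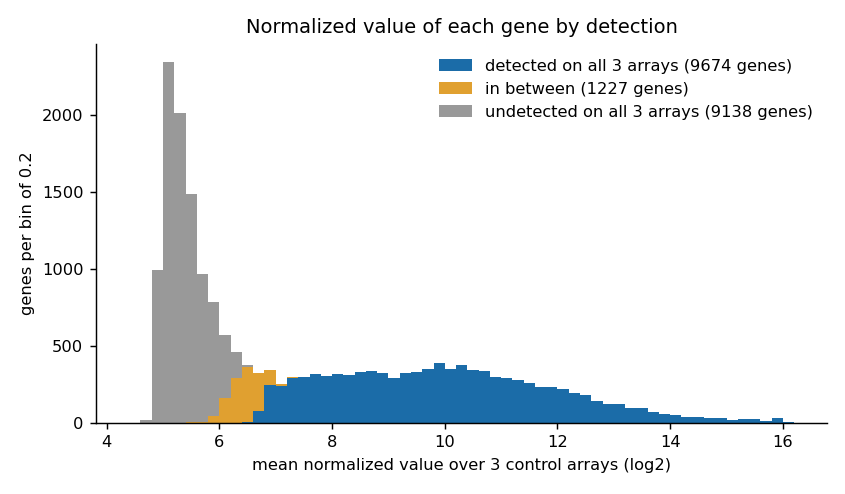
Number of genes (vertical axis) in bins of 0.2 of the mean normalized value over the 3 control arrays (horizontal axis, log2), coloured by detection. The 9674 detected genes spread over a wide range up to about 16, and the 9138 undetected genes form a narrow peak at the low end.

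Among the 6 markers that were looked up to check the identity of the line, PAX8, CDH1, POU5F1 and KRT8 were detected on all 3 arrays, MUC16 on 2 and WT1 on none. PAX8, the Müllerian transcription factor, had signals of 4347.4, 3825.2 and 3599.1 on replicates 1 to 3, a normalized log2 value of 11.88 ± 0.054 (SD, n = 3). All 3 of its probes were detected on every array. CDH1, which encodes E-cadherin of the adherens junction, had signals of 1659.7, 1815.1 and 1723.7 (10.62 ± 0.154). POU5F1 had signals of 1938.2, 1625.3 and 1786.2 (10.66 ± 0.099), and the second probe, at 393.4, 283.7 and 295.3, was also above background on each array. Thus both probes named for POU5F1, which the series targets as Oct4, were above background in the control cells. The replicates lay close together on the brighter probe, while the second probe was dimmer and less even (7.31 ± 0.39). Whether these probes also read related sequences was not tested.

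KRT8, a keratin of simple epithelia, was dim and uneven, with signals of 299.9, 436.8 and 378.9 (7.67 ± 0.6). MUC16 had 249.3, 271.1 and 247.6, which gave detection p-values of 0.01948, 0.0026 and 0.00909. Its single probe therefore sat at the limit of detection on all 3 arrays and missed the threshold on replicate 1. WT1 had 2 probes, of which the brighter read 225.6, 191.4 and 192.8 and the dimmer 178.2, 151.7 and 169.1. Neither was above background on any array, so WT1, looked up as a marker of the line, was not seen by these probes. A probe at background does not show that its transcript is absent. CDH1 and KRT8 mark epithelia in general. Of 27 ovarian carcinoma antigens, 14 (51.9%) were undetected, against 45.6% of all genes. In RNA pooled from a whole culture, few cells with a transcript and little of it in each cell cannot be told apart.

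Of 27 antigens and secreted products used as markers of ovarian carcinoma, 10 (37.0%) were detected on all 3 arrays, against 48.3% of all genes. Another 14 (51.9%) were not detected on any array, against 45.6% of all genes. SPP1, the secreted phosphoprotein osteopontin, read 48481.9, 41045.9 and 44589.3 (15.45 ± 0.06), and both of its probes were bright on each array. FOLR1, the folate receptor alpha that antibody drugs for this cancer bind, read 12931, 12581.9 and 12922.3 (13.63 ± 0.082), and its 3 probes were all detected. EPCAM, an epithelial adhesion molecule, read 5888.8, 5035.6 and 4892.9 (12.32 ± 0.047). These surface and secreted products had tight replicates. The claudin CLDN3 (11.97 ± 0.246), the phosphate transporter SLC34A2 (11.74 ± 0.172), the retinoic acid binding protein CRABP2 (12.05 ± 0.06) and the cancer-testis antigen PRAME (10.02 ± 0.135) were likewise detected. MUC1, a surface mucin, was less even, with 1595.7, 1608.8 and 869.6, replicate 3 being the low one (10.16 ± 0.532). MSLN, or mesothelin, the reported binding partner of MUC16 on mesothelial cells, read 471, 494.5 and 445.3 (8.28 ± 0.131).

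The undetected antigens included WFDC2, which encodes the serum marker HE4 and read 173.8, 204.9 and 172. CLDN6, CLU, LCN2 and the secreted proteases KLK5, KLK6, KLK7, KLK8, KLK10 and KLK11 were not above background either. No member of the kallikrein family was detected on any array, 0 of 15, while 45.6% of all genes were undetected on all 3 arrays. CLDN4 passed on 1 array only, with signals of 239, 218.6 and 276.2.

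**Figure D2:**
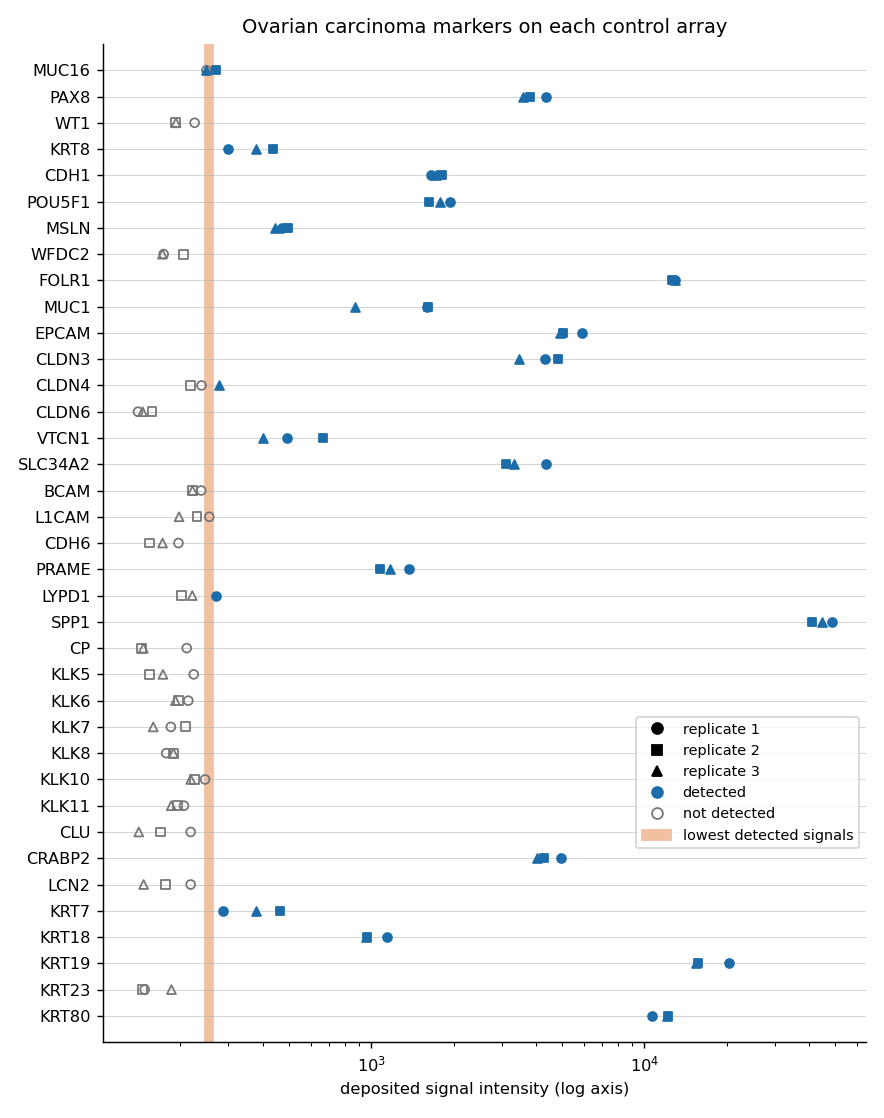
Deposited signal intensity (horizontal log axis) of the 6 markers of the line, the ovarian carcinoma antigens and the simple keratins on each control array, with filled symbols where detected and open symbols where not, and with the span of the 3 arrays' lowest detected signals shaded. PAX8, CDH1 and POU5F1 lie far right of the shaded band, MUC16 on or just right of it, and WT1 left of it.

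Of 18 regulators of the Müllerian duct and the gonads, 7 (38.9%) were detected and 8 (44.4%) were not, against 48.3% and 45.6% of all genes. Besides PAX8, the detected members were SOX17, MECOM, LHX1, OVGP1, MEIS1 and HOXB7. MECOM, a zinc finger transcription factor at a locus often amplified in ovarian carcinoma, read 10282, 10630.9 and 9390.4 (13.28 ± 0.106), while its other probes were detected on 1 array and on none. SOX17, a transcription factor of the fallopian tube and of endoderm, read 4457.3, 2711.2 and 2685.6, with replicate 1 above the others (11.56 ± 0.343). OVGP1, the oviductal glycoprotein of tubal secretory cells, read 803.2, 872.9 and 705.8 (9.3 ± 0.186). The steroid receptors were absent from the detected set: ESR1 read 176.7, 182.4 and 155.9, PGR read 196.4, 144.1 and 141.2, and ESR2 was also at background. EMX2, GATA4 and NR5A1 were not detected, and PAX2, GATA6 and FOXL2 were detected on some arrays only.

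HOX genes set position along the body axis and along the Müllerian duct. Of 29 with a probe, 8 (27.6%) were detected, against 48.3% of all genes, and 18 were not. By cluster, a split made after the values were seen, these were 6 of 10 HOXB genes, 1 of 9 HOXC genes (HOXC13) and 0 of 9 HOXD genes. HOXA was represented by a single gene, HOXA2 (7.86 ± 0.057), which was detected, and HOXA9, HOXA10, HOXA11 and HOXA13 had no named probe. HOXB2 read 3568, 2156 and 2322.6 (11.26 ± 0.308), HOXB5 had a value of 10.81 ± 0.203 and HOXB8 one of 10.59 ± 0.213. HOXB7, HOXB6 and HOXB4 made up the rest of the HOXB set.

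Epithelial genes were mostly present and mesenchymal genes mostly not. Simple keratins form the filaments of gland and duct cells. Of the keratins listed here as simple, 5 of 6 (83.3%) were detected, against 48.3% of all genes, with KRT80 counted among them. KRT19 read 20441.6, 15747.6 and 15442 (14.05 ± 0.127), KRT18 had a value of 9.74 ± 0.079 and KRT80 one of 13.48 ± 0.211. KRT7, the keratin that pathologists pair with PAX8, was dim, at 285.8, 461.4 and 378.2 (7.66 ± 0.74), with the low value on replicate 1 as for KRT8. KRT23 was the undetected member. Keratins of stratified epithelium, hair and gut were detected in 2 of 19 cases (10.5%), namely KRT10 (12.07 ± 0.171) and KRT13 (7.31 ± 0.297). That count was 4 without replicate 1, since KRT15 and KRT24 passed on the other arrays. KRT5, KRT14 and KRT20, the usual markers of basal and intestinal cells, were at background.

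Junction proteins and epithelial regulators were detected in 25 of 33 cases (75.8%), against 48.3% of all genes. SPINT2, a membrane protease inhibitor, read 17055, 16952.7 and 17198.4 (14.04 ± 0.105), and CTNNA1, the α-catenin that links cadherin to actin, read 14995.6, 13236.5 and 13591.4 (13.75 ± 0.027). The tight junction claudin CLDN1 (12.97 ± 0.09), the desmosomal cadherin DSG2 (12.89 ± 0.109) and the epithelial transcription factor ELF3 (11.26 ± 0.036) were also detected on every array. The 7 undetected members were the splicing regulators ESRP1 and ESRP2, the transcription factors GRHL2 and OVOL1, the tight junction protein OCLN, the small GTPase RAB25 and P-cadherin, CDH3. GRHL2 read 177.8, 189.1 and 147.1, and OCLN read 162.2, 170.8 and 151.1. OCLN had 2 probes, and each of the other undetected members had 1. By these probes, several regulators that define epithelial state were not above background beside a clear CDH1 signal.

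Of 27 regulators and products of mesenchymal cells, 4 (14.8%) were detected, against 48.3% of all genes. VIM, the intermediate filament vimentin, read 17148, 13171.4 and 15843.6 (13.88 ± 0.142) and was bright by both probes. S100A4, a calcium-binding protein of motile cells, read 22758.2, 17551 and 20068.5 (14.28 ± 0.11). The actin-binding protein TAGLN (9.76 ± 0.239) and smooth muscle actin, ACTA2 (8.08 ± 0.306), completed the set. The transcription factors that drive loss of epithelial state, ZEB1, ZEB2, SNAI1, SNAI2, TWIST1 and TWIST2, were all undetected, as were N-cadherin, CDH2, and fibronectin, FN1. ZEB1 read 199.6, 151.5 and 153.5. Vimentin therefore stood beside keratins with none of these regulators above background.

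Pluripotency and stem cell genes were detected in 9 of 27 cases (33.3%) and undetected in 16 (59.3%), against 48.3% and 45.6% of all genes. POU5F1 was above background while its partners in embryonic stem cells were not: NANOG read 177.1, 172.5 and 175.3, and SOX2 read 254.6, 227.6 and 196.4. SALL4, ZFP42, DPPA4 and TERT were also at background. LIN28A, an RNA-binding protein of early embryos, read 399, 376.7 and 401.6 (7.86 ± 0.126). DNMT3B, a de novo DNA methyltransferase, had a value of 11.88 ± 0.056. ALDH1A1, an aldehyde dehydrogenase used to mark stem-like tumour cells, read 32033.3, 23082 and 25582.7 (14.7 ± 0.135), and the hyaluronan receptor CD44 read 13151.8, 13504.3 and 12299.5 (13.65 ± 0.1). MYC read 14130.1, 6813.7 and 8948.8, highest on replicate 1 (13.2 ± 0.454). PROM1, KIT and BMI1 were the remaining detected members.

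Genes of the RB-E2F pathway and of G1 control were detected in 33 of 36 cases (91.7%), against 48.3% of all genes. RB1, the repressor itself, was dim on every array, at 413.2, 315.8 and 423.7 (7.78 ± 0.403). Its relatives RBL1 (8.36 ± 0.063) and RBL2 (9.56 ± 0.234) were detected as well. All 8 E2F genes passed, among them the activators E2F1 (7.96 ± 0.555) and E2F2 (11.1 ± 0.171). CCND1, the D-type cyclin that activates CDK4, read 22427.5, 21260.2 and 17957.9 (14.31 ± 0.119), and CDK4 read 12549, 10223.7 and 11163.4 (13.44 ± 0.081). CCND2, its relative, read 192.1, 203.8 and 189.4, and CCNE2 and CDK6 were likewise not detected on any array. Cyclin E1, CCNE1, was detected at 3018, 2407.4 and 2399.1 (11.25 ± 0.104). CCNF, a cyclin that acts as an F-box protein of an SCF ubiquitin ligase, read 5172.6, 4290 and 3626.2 (12.02 ± 0.179). PPP1R8, the gene of NIPP1, had no named probe, while the catalytic subunits of protein phosphatase 1 that it binds, PPP1CA (12.68 ± 0.105), PPP1CB (11.18 ± 0.199) and PPP1CC (14.16 ± 0.092), were detected. CDKN2C had no named probe.

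The machinery of S phase and of mitosis was detected almost whole. Replication genes passed in 38 of 39 cases (97.4%), against 48.3% of all genes, and the exception, GINS1 of the replicative helicase, was detected on replicate 3 only, with signals of 222.1, 207.5 and 267.4. MCM7, another helicase subunit, read 23721.4, 22253 and 20968.8 (14.45 ± 0.062), and PCNA, the sliding clamp, read 7956.3, 7814.3 and 10220.2 (13.05 ± 0.285). All 33 genes of the spindle and kinetochore list were detected (100%), and their median SD was 0.074, against 0.145 for all detected genes. Other lists were about as even, with 0.074 for glycolysis and 0.077 for housekeeping genes. The SD also fell with brightness. It was 0.131 in detected genes with values from 9.87 to 11.34, where the spindle list's median of 10.9 lies. CDC20, the activator of the anaphase-promoting complex, read 30025.3, 29233.2 and 27024 (14.8 ± 0.074). PTTG1, or securin, read 22925.6, 19336.1 and 20774.2 (14.35 ± 0.05), and CDK1, the mitotic kinase, read 6225.7, 4955.6 and 5403.4 (12.39 ± 0.094). The kinases AURKA (12.43 ± 0.06), AURKB (11.92 ± 0.216) and PLK1 (9.14 ± 0.186) were detected too. The proliferation marker MKI67 was dim, at 352.4, 461.6 and 357.9 (7.82 ± 0.42).

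Homologous recombination and Fanconi anaemia genes, whose loss defines a large class of serous carcinomas, were detected in 20 of 28 cases (71.4%), against 48.3% of all genes. BRCA1 read 705, 630.8 and 668.5 (8.99 ± 0.086) and was detected by both probes. The checkpoint kinase ATM was detected (9.5 ± 0.032), but ATR, with 257, 211.3 and 201.2 on its brightest probe, was not. RAD50 of the MRE11 complex read 143.1, 128.1 and 155.2 and was at background, while its partners MRE11 (7.99) and NBN (10.37) were detected. BRCA2, FANCA and FANCD2 had no named probe.

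Growth machinery made up much of the bright end. Cytosolic ribosomal proteins were detected in 68 of 69 cases (98.6%), against 48.3% of all genes. The detected ones had a median normalized value of 15.13, against 9.87 for all detected genes. RPL10 was the exception: both probes were at background, the brighter at 189, 163.1 and 136.1. RPL28 (8.65 ± 0.194) and RPL37 (9.16 ± 0.133) were detected but dim. Translation factors were detected in 35 of 35 cases, EEF1A1 and the helicase EIF4A1 (15.43) among the bright ones and EIF3C (7.14 ± 0.169), which has a near-identical copy, among the dim ones. Mitochondrial ribosomal proteins were detected in 77 of 80 cases (96.2%). Subunits of oxidative phosphorylation passed in 53 of 61 cases (86.9%), and the undetected ones were COX4I2, COX6A2, COX6B2, COX7A1, COX7B2 and COX8C, which are tissue-restricted isoforms of cytochrome c oxidase, and NDUFS6 of complex I. ATP5F1B, the catalytic β subunit of ATP synthase, read 66789.7, 55739.2 and 60424.3 (15.89 ± 0.05).

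Of 28 glycolytic genes, 19 (67.9%) were detected, against 48.3% of all genes, including GAPDH (15.33), ENO1 (15.74 ± 0.043), LDHA (15.3 ± 0.047) and the glucose transporter SLC2A1 (12.25 ± 0.074). The muscle enolase ENO3 (10.07) and the neuronal enolase ENO2 (10.8) were detected too. The undetected members included the testis isoforms GAPDHS and PGK2, the muscle isoform PGAM2, the liver and red cell pyruvate kinase PKLR and the glucose transporters SLC2A2, SLC2A3 and SLC2A4. Proteasome genes passed in 31 of 35 cases (88.6%). The undetected ones were PSMB8 and PSMB9 of the immunoproteasome, PSMB11 of the thymus and PSMA8 of the testis. PSMB8 read 192.8, 162.9 and 207.2, while PSMB10, also an immunoproteasome subunit, read 7147.2, 6700.2 and 5638.1 (12.62 ± 0.128). Chaperones were detected in 29 of 33 cases (87.9%), with the exceptions HSPA1A, HSPA6 and PDIA3 undetected and PPIB on some arrays only. HSPA1A and HSPA1B are near-identical genes, and their split into 5.66 and 13.63 is uncertain. All 18 housekeeping genes with a probe were detected.

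Genes of antigen presentation and the interferon response were detected in 19 of 31 cases (61.3%), against 48.3% of all genes. B2M, the light chain of MHC class I, read 7719.6, 5395.7 and 7068.1 (12.67 ± 0.224), and the heavy chain HLA-C read 854.3, 645.8 and 686.3 (9.14 ± 0.186). The interferon-induced ISG15 (12.74 ± 0.12), IFI6 (11.53 ± 0.329) and BST2 (12.33) were detected, while IFI44, MX2, OAS2, OASL and the RNA sensors IFIH1 and RIGI were at background. Receptor tyrosine kinases were detected in 17 of 46 cases (37.0%), below the same 48.3%. ERBB2 read 2608.8, 2662.5 and 2274.9 (11.2 ± 0.122) on 1 probe and was undetected on its other probes, and MET read 2250.3, 3098.3 and 2582.8 (11.27 ± 0.331). EGFR was dim, at 411.6, 341.3 and 397 (7.8 ± 0.221), by 2 of 4 probes. IGF1R, both PDGF receptors and the VEGF receptors FLT1, KDR and FLT4 were not detected.

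Drug efflux and detoxification genes were detected in 27 of 37 cases (73.0%), against 48.3% of all genes. The glutathione transferase GSTP1 read 44380.8, 36057.5 and 37585.4 (15.25 ± 0.047), and thioredoxin, TXN, had a value of 15.16 ± 0.057. The efflux pump ABCG2 and the aldo-keto reductases AKR1C1, AKR1C2 and AKR1C3 were not detected. ABCB1, the multidrug pump P-glycoprotein, read 276.7, 238.8 and 285.7 and missed the threshold on replicate 2. TUBB3, a β-tubulin of neurons that is also studied in taxane response, read 24565.7, 18414.9 and 17816.6 (14.28 ± 0.158).

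Markers of cells that the culture should lack were mostly at background. Against 48.3% of all genes, fibroblast markers were detected in 0 of 10 cases and erythroid markers in 0 of 8, with COL1A1 and HBA2 passing on 1 array each. PTPRC, the pan-leukocyte CD45, read 191.4, 194 and 152.6, and none of CD3D, CD3E, CD4, CD14 or ITGAM passed. The leukocyte list held 2 detected genes of 15, CD68 (10.89 ± 0.375), a lysosomal protein found in many cell types, and FCGR3A (7.41 ± 0.468). Of 11 endothelial markers, 2 were detected: VWF at 805.8, 648.6 and 726.4 (9.14 ± 0.153) and CDH5 at 1234, 1234.2 and 1221.3 (10.07 ± 0.089). PECAM1, KDR, TEK and TIE1 were at background, and each of VWF and CDH5 had 1 probe. Hepatocyte markers gave ALB (7.18 ± 0.21) and APOA1 (6.91 ± 0.269) of 10, muscle markers ACTA1 (9.4 ± 0.262) of 10, and neuronal markers TUBB3 of 11. The muscle count was 2 without replicate 1, through TNNI2, and the neuronal count was 2 without replicate 2, through GAD1. Ciliated cell markers gave FOXJ1, the regulator of motile cilia, at 988.4, 986.4 and 761.6 (9.55 ± 0.205) and CAPS (7.18 ± 0.219) of 9, with the axonemal genes DNAI1, DNAI2, DNAH9 and RSPH1 undetected. Cancer-testis genes were detected in 1 of 31 cases (3.23%), and that gene was PRAME.

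**Figure D3:**
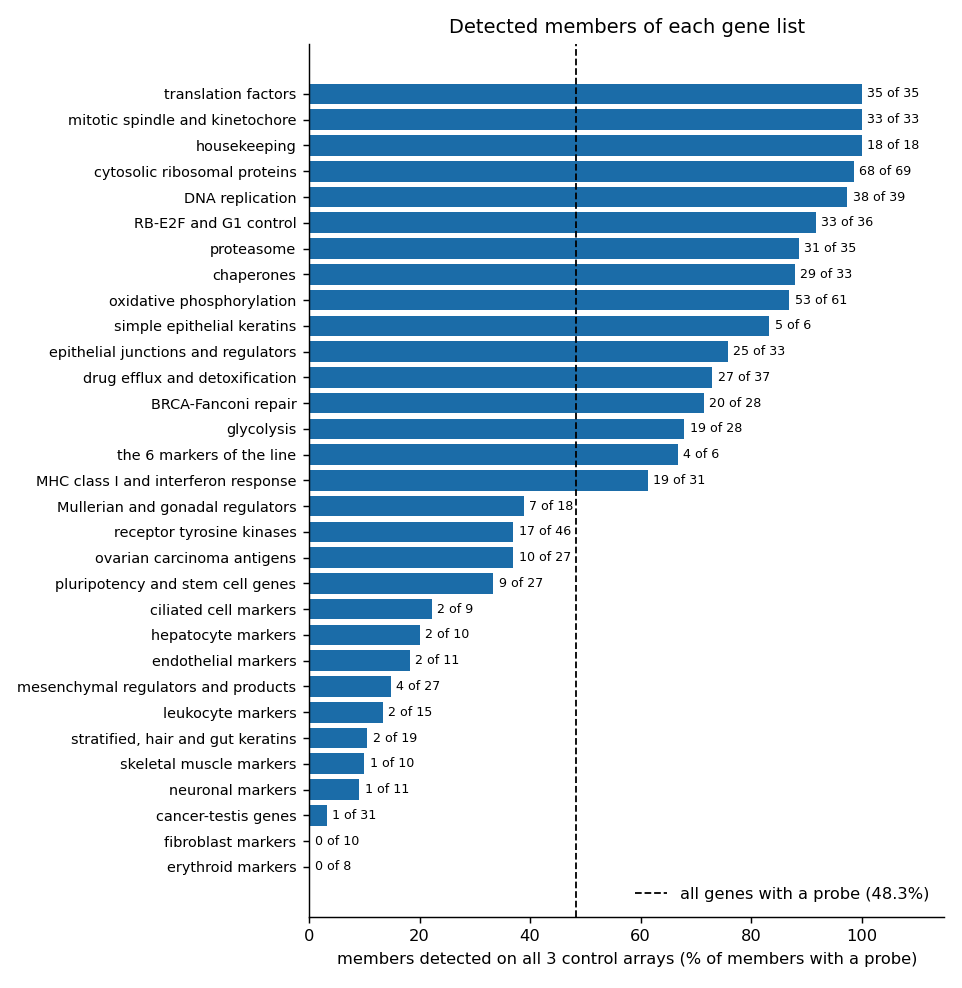
Share of the members of each gene list that were detected on all 3 control arrays (horizontal axis, % of members with a probe), with counts beside the bars and a dashed line at 48.3% for all genes with a probe. Translation factors, spindle genes and housekeeping genes reach 100%, and fibroblast and erythroid markers are at 0.

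Large families with restricted expression stayed dark. Olfactory receptors were detected in 4 of 383 cases (1.04%), namely OR9A4, OR11H1, OR7E156P and OR56B1, of which OR9A4 read 428.8, 397.5 and 425.1. Keratin-associated proteins of hair were detected in 0 of 81 cases. TAS2R10 was the detected gene of 27 taste receptors, and DEFB1 that of 37 beta defensins. DEFB1, which epithelia make without stimulation, read 428.7, 446.8 and 377.7. Of 21 cadherins, CDH1, CDH5 and CDH16 were detected. Zinc finger (ZNF) genes, at 253 of 492 (51.4%), and solute carriers, at 180 of 383 (47.0%), lay near the 48.3% of all genes, while RAB GTPases, the switches of vesicle traffic, lay above it at 42 of 62 (67.7%).

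The 25 brightest genes had mean signals from 61749.4 to 67382.73 and so lay near the top of the scale, where the highest signal on an array was 67372.9 to 74695. They held 7 ribosomal protein genes, RPL41, RPS2, RPS16, RPS19, RPL18, RPLP2 and RPL27A. EEF1A1, which brings aminoacyl-tRNA to the ribosome, read 74695, 59542.6 and 67372.9. The cytoskeletal genes ACTG1, TMSB10 and TMSB4X, the signal recognition particle RNA RN7SL1, the PCNA-binding protein PCLAF and the origin recognition subunit ORC6 were also among them. The 4 pseudogenes ANXA2P2, RRP7BP, RPL13AP5 and TUBA3FP share sequence with expressed parent genes, so their signal cannot be assigned to them alone. The rest were ZNF674, F2R, ITIH5, MSH3, FAM177A1, LAIR1 and ROCK2.

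Several of these bright genes had other probes that did not follow. Genes were ranked by their brightest probe, so no other probe of a gene could be brighter. Another probe existed for 15 of them, and in 12 of those 15 at least 1 other probe was 50-fold dimmer or more. LAIR1, an inhibitory receptor of leukocytes, read 72490.7, 59188.7 and 56512.8 on the brightest probe, while its other probe, at 233.3, 190.6 and 224.5, was not detected. ITIH5, a hyaluronan-binding protein, read 67051.9, 63758.7 and 62741.4 on 1 probe, and its other 4 probes, from 152.1 to 186.4, were not detected. The thrombin receptor F2R read 69982.2, 62228 and 62100.5 on the brightest probe and 771.7, 675.1 and 664.1 on the other. MSH3, a mismatch repair gene, read 67766.1, 60550.2 and 63528.7 on one and 634.7, 599.4 and 571.5 on the other. The ribosomal RPL41 read 387.9, 377.4 and 404.5 on its other probe, and the other probe of TMSB4X was not detected. In EEF1A1, 3 of 4 probes were near the top, and in ACTG1 both were. Of the 15 bright genes with another probe, 4 (26.7%) had at least 1 probe that was not detected on any array. Among all 3842 detected genes with more than 1 probe, that share was higher, at 1811 (47.1%). A gene's presence thus often rested on part of its probes. Why probes of a gene differed was not tested.

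The arrays agreed closely. Between pairs of arrays Pearson's r across the 9674 detected genes was 0.9879 to 0.9908, and genes are not independent replicates. The median SD of a detected gene over the 3 arrays was 0.145 on the log2 scale, with quartiles of 0.09 and 0.222. It was 0.108 in the brightest 2419 detected genes and 0.208 in the dimmest 2420. An SD over 0.5 was seen in 120 genes (1.24%), and over 1 in 2, FAM107A and SHISA2.

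FAM107A, an actin-associated stress response gene, read 1411.1, 426.2 and 336.1 on replicates 1 to 3 (8.61 ± 1.39), replicate 1 being far above the others. SHISA2 read 991.6, 342 and 409.2 (8.4 ± 1.06), and CYP1A1, the xenobiotic-induced cytochrome P450, read 861.6, 337.9 and 402.2 (8.29 ± 0.941), both again highest on replicate 1. In the other direction, GINS4 of the replicative helicase read 955.2, 2121.4 and 1721.3 (10.4 ± 0.777), and BPNT1 read 602.5, 1206.7 and 1158.7 (9.6 ± 0.792). The 15 most variable genes with a mean of at least 8 also held SCARNA8, SCARNA16, SCARNA14, TRUB1, DHRS3, GUSBP14, LYPLA1, CLTC, KIF2A and CLOCK. Replicate 1 was the farthest array in 10 of these 15.

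The small Cajal body RNAs, which guide modification of spliceosomal RNAs, moved together between arrays, a grouping made after their values were seen. SCARNA8 read 442.9, 946.4 and 723.1, SCARNA16 read 389.6, 728.1 and 644, and SCARNA13 read 866, 1398.4 and 1311.5. Of 12 detected SCARNA genes, 10 were lowest on replicate 1, against 49 of 100 detected SNORA and SNORD genes and 3311 of 9674 genes. Replicate 1 lay a median of -0.76 (log2) from the mean of the other arrays for SCARNA genes and -0.12 for SNORA and SNORD genes, against 0 for all detected genes. The cause was not tested.

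**Figure D4:**
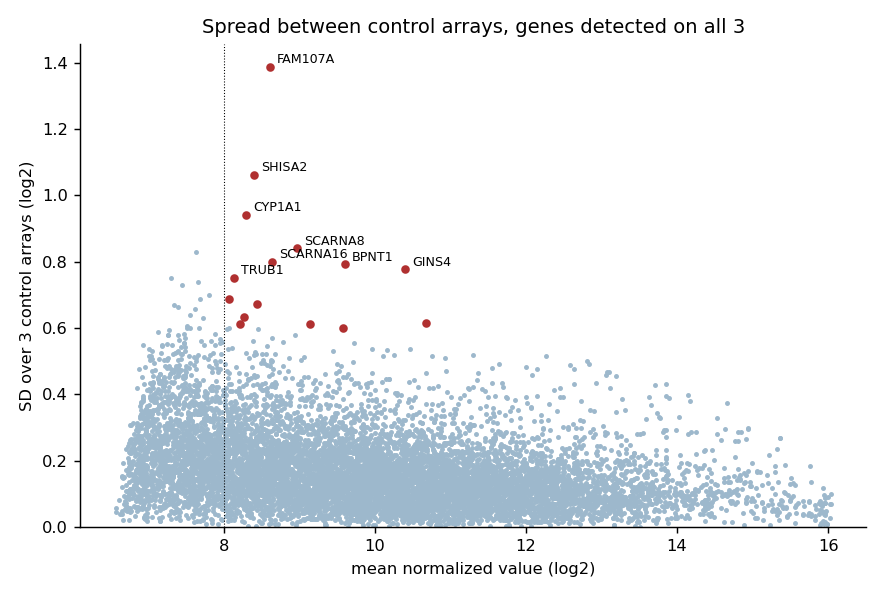
SD over the 3 control arrays (vertical axis, log2) against the mean normalized value (horizontal axis, log2) of each detected gene, with the 15 most variable genes of mean 8 or more in red and some of them named. The SD falls towards bright genes, and FAM107A and SHISA2 stand above 1.

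Detected and undetected genes differed in the sequence around their start. In the RefSeq window of 250 bases before to 50 after the first start of a gene (GRCh38.p14), 7828 detected and 5794 undetected protein-coding genes could be read. The ratio of observed to expected CpG, the dinucleotide that marks unmethylated CpG island promoters, had a median of 0.854 in detected genes (quartiles 0.724 and 0.96) and 0.482 in undetected genes (0.205 and 0.797). It exceeded 0.6 in 85.7% of detected and 42.8% of undetected genes. Median GC content was 65.33% in detected and 58.0% in undetected genes. The letters TATAAA, on either strand, stood in 5.26% of detected and 15.2% of undetected promoters, and in 9.41% of all. By CpG ratio, the detected share was 14.1% of 1739 genes under 0.2, 60.3% of 3117 genes from 0.6 to 0.8 and 76.7% of 1758 genes at 1 or more. Among detected genes the ratio moved little with brightness, with medians of 0.871 in the 1999 promoters of the brightest 2238 genes and 0.819 in the 1911 of the dimmest 2238. Genes are not replicates, so these are descriptions with no test.

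**Figure D5:**
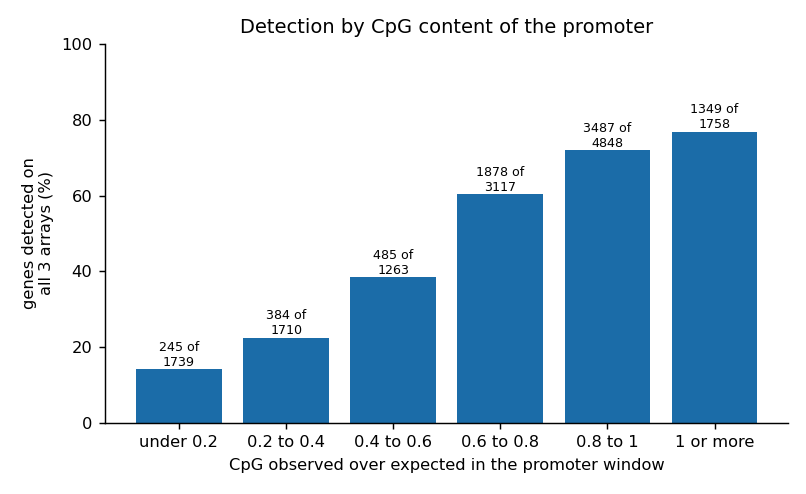
Share of protein-coding genes detected on all 3 control arrays (vertical axis, %) by the observed over expected CpG ratio of the promoter window (horizontal axis), with counts above the bars. The share climbs from 14.1% in the lowest bin to 76.7% in the highest.

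The relation does not fix single genes, as the detected lineage genes PAX8 and KRT8 show. Their windows, and those of 2 undetected genes that follow the relation, are printed whole with every CpG in capitals. PAX8 (chr2:113278872-113279171, minus strand) held 13 CpG at a ratio of 0.48, and KRT8 (chr12:52926420-52926719, minus strand) held 2 at 0.11, although both were detected. Several starts were listed for 3873 genes. The first start, used here, need not be that of the transcript that the probe read, in KRT8 or in any other gene. NANOG (chr12:7789152-7789451, plus strand) held 5 at 0.32 and PTPRC (chr1:198638790-198639089, plus strand) held 1 at 0.12, and neither was detected. The undetected pair was chosen for print after their values were seen.
PAX8: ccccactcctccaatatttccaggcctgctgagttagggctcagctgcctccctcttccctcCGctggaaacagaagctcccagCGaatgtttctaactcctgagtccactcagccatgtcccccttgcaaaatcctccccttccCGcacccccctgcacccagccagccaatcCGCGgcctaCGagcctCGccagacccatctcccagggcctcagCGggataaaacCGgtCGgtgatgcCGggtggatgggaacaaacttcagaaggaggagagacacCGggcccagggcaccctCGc
KRT8: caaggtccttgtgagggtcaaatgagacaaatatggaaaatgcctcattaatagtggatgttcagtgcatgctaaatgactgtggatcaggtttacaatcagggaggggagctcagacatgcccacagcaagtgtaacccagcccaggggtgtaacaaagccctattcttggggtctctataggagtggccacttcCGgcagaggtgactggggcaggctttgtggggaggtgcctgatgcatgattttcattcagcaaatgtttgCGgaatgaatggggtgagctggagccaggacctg
NANOG: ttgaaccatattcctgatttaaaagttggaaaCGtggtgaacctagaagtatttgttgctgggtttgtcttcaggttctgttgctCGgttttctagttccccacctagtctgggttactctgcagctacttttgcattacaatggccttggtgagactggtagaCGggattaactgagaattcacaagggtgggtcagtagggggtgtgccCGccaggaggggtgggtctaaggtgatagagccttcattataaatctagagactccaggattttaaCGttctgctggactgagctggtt
PTPRC: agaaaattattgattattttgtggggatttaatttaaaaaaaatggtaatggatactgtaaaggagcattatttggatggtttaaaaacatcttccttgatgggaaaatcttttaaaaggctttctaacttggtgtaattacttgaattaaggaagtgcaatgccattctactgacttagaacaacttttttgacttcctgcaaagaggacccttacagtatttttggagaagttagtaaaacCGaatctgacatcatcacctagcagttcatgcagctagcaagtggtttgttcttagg

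Ribosomal protein promoters carry a pyrimidine-rich start, the 5′ terminal oligopyrimidine motif through which growth signals control their translation. The letters CTTT on the coding strand, within 10 bases of the start on either side, stood in 35 of 59 ribosomal protein promoters (59.3%), in 8 of 26 translation factor promoters (30.8%) and in 8.1% of all 14435. The window from 20 bases before to 20 bases after the start is printed for those of the 25 brightest genes that are ribosomal and have an entry, with CTTT in capitals where it lies in the range searched. RPL41 lies at chr12:56116613-56116652 (plus strand), RPS16 at chr19:39435930-39435969 (minus), RPS19 at chr19:41860235-41860274 (plus), RPL18 at chr19:48619159-48619198 (minus), RPLP2 at chr11:809947-809986 (plus) and RPL27A at chr11:8682772-8682811 (plus). Each of these 6 held the letters.
RPL41: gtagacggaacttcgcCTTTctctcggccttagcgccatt
RPS16: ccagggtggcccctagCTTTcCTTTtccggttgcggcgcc
RPS19: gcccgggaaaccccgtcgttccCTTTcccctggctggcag
RPL18: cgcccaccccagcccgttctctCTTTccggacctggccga
RPLP2: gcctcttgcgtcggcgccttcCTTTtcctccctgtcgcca
RPL27A: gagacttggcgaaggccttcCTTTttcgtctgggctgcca

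Promoters of the spindle and kinetochore genes held a different word. The letters CCAAT, on either strand, stood in 23 of 28 of them (82.1%) and in 36.6% of all promoters read. Replication genes held it in 61.8% and chaperones in 61.3% of cases, while the ribosomal list, at 30.5%, did not exceed all promoters. CCAAT boxes upstream of mitotic genes are known binding sites of the NF-Y complex, but a match of letters is not a site. The 150 bases before the start are printed for CDC20 (chr1:43358831-43358980, plus strand), PTTG1 (chr5:160421705-160421854, plus strand) and CDK1 (chr10:60778181-60778330, plus strand), with CCAAT and its complement ATTGG in capitals. The ribosomal and mitotic lists were singled out after the values of 13 lists were seen.
CDC20: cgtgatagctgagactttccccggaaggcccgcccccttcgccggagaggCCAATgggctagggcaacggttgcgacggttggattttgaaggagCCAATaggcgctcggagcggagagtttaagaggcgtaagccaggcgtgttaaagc
PTTG1: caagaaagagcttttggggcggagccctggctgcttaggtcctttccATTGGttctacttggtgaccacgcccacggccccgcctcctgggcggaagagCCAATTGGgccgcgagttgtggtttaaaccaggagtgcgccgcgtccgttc
CDK1: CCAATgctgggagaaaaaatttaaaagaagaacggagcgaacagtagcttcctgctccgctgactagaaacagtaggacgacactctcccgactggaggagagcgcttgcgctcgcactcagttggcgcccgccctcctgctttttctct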

How the data were processed

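The authors deposited, per the file headers, a value for each probe and array with its detection p-value. By their values the deposited signals are intensities on a linear scale with background left in, and the p-values ran in steps of 0.0013. The submitters' processing notes name GenomeStudio, with no version given in the sources used here. The platform table pairs 30102 of 47322 probes with 1 gene, 8 with several and 17212 with none. Of the paired Entrez IDs, 30063 were found in the RefSeq gene table and 0 symbols changed. Only the 3 control arrays were used. They were normalized with limma 3.58.1 under R 4.3.3 (neqc, offset 16: background modelled from the detection p-values, quantile normalization, log2). A gene was read by its named probe with the highest mean normalized value. It counted as detected at a detection p-value under 0.01, and as undetected where every probe missed this on all 3 arrays. Values are given as mean ± SD over 3 arrays, and list counts are read against the share of all genes. No test between groups was possible.

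Named genes were the list members, the 25 brightest genes and the 15 genes of largest SD with a mean of at least 8. Members and lists were chosen with earlier results of these data known, and support nothing as independent evidence. Family members, HOX clusters, SCARNA genes, the CTTT and CCAAT searches and the printed NANOG and PTPRC promoters were chosen after values were seen. Promoters were limited to protein-coding genes outside chromosome 8, where 87.4% of detected and 80.6% of undetected genes had an entry. The steps were tested on simulated data. Alternatives were other detection thresholds, probe rules and normalizations, and leaving out each array.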

Additional observations from a re-analysis of the deposited data

How the results depend on the processing

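The number of genes detected on all 3 arrays was 9674. It was 10607 at a detection p-value under 0.05, 9923 with p-values adjusted by Benjamini-Hochberg within each array, 10894 where detection on 1 array sufficed and 7544 where every probe had to pass, all within 1.5 times the count given. Leaving out 1 array gave 9803 to 9864. Genes undetected on all 3 arrays numbered 9138, with 7436 at p under 0.05, 8705 after adjustment and 9352 to 9418 with an array left out. Detected members over all lists were 505, with 532 at p under 0.05 and 507 to 512 with an array left out. The median SD between arrays was 0.145. It was 0.114 with quantile normalization and no background correction, 0.16 with median scaling and 0.167 over all genes with a probe. With an array left out it was 0.114 to 0.124, but the median of SDs over 2 arrays tends to be lower than over 3. Those values therefore do not show a smaller spread. The median CpG ratio of detected minus undetected genes was 0.372, and it was 0.407 at p under 0.05 and 0.359 to 0.366 with an array left out. In alternatives chosen after seeing the data, it was 0.359 as a mean over all starts of a gene and 0.388 over all genes with a promoter entry. Other alternatives concerned counts of single lists, values of single markers and the set of 25 brightest genes. Of these, 12 moved a value, each upward, and 153 did not. A looser threshold or fewer arrays makes detection easier, so the upward direction of the list counts was built in. Accepting any probe detected on all 3 arrays left every list count unchanged. With an array left out, 22 to 23 of the 25 brightest genes were shared. Without background correction MUC16 had a value of 8.0, against 6.58, so a normalized value near background is not comparable between the settings. No paired analysis was possible because only the control group was used. Signals within 2 times the detection limit, 25.1% of detected genes, sit closest to the background.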

Other observations

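Interleukins and their receptors, counted together, were detected in 19 of 83 cases (22.9%), against 48.3% of all genes. Another 58 (69.9%) were undetected on all 3 arrays, against 45.6% of all genes. IL18, a cytokine that epithelia make as a precursor, read 39347.6, 39138.8 and 39064.3 on replicates 1 to 3 (15.26 ± 0.116). IL10, better known as a product of leukocytes, read 10208.7, 12139.2 and 10956.7 (13.42 ± 0.214). IL6 was dim, at 364.9, 361.6 and 409.4, while its signalling partner IL6ST read 688.1, 647.3 and 666.4. These members were picked after their values were seen.

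Of 43 collagens, 7 (16.3%) were detected, against 48.3% of all genes. They were COL4A1 at 10659.3, 9054.2 and 8948.7 (13.19 ± 0.039), COL4A2 (10.59 ± 0.037), COL4A5 (11.03 ± 0.106) and COL18A1 (12.73 ± 0.146), which are components of basement membranes, and COL7A1 (9.88 ± 0.249), COL6A1 (7.54 ± 0.303) and COL8A2 (7.37 ± 0.215). Integrins were detected in 9 of 26 cases (34.6%), with ITGB1, the common β1 chain, at 9791.6, 8965.8 and 8917.8 (13.15 ± 0.027). ADAM and ADAMTS proteases were detected in 6 of 39 cases (15.4%) and cytochromes P450 in 9 of 58 (15.5%).

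Over the 22 autosomes and X, the detected share of protein-coding genes ran from 304 of 741 on X (41.0%) to 451 of 727 on chromosome 16 (62.0%), against 52.2% of all protein-coding genes with a probe. Probes without a gene name were detected on all 3 arrays in 3082 of 17212 cases (17.9%), against 12668 of 30102 named probes (42.1%) and 33.3% of all probes. CCR6 and LILRB3, both leukocyte receptors, read 65280.9, 60839.8 and 58284.4 and 38316.5, 46916.8 and 41975.8 on their brightest probes, and both had another probe at background.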
